A study of Homo sapiens with 8 samples.

Results

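The 10 genes S100A2, S100A3, S100A4, S100A6, S100A10, S100A11, S100A13, S100A14, S100A16 and S100P, which encode S100 calcium-binding proteins, were found by their symbols among the 58302 genes of an RNA-seq count table of A549 cells. A549 is an established human lung adenocarcinoma cell line. The cells were transiently transfected either with an siRNA against APEX1, the gene of the base excision repair endonuclease APE1 (libraries labelled siAPEX1, n = 4), or with a scramble control siRNA (libraries labelled siCTRL, n = 4), and the study used them to look for RNAs that depend on APE1. The groups carry no other stated difference, and the study calls its replicates biological, while the labels name no separate cultures. The genes were selected on this same contrast, around the lower level of S100A16 in the libraries labelled siAPEX1. Their differences between the groups are therefore given as a description, with no p-value, and where the calling rule is applied to them it only sets them beside all genes.

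The counts of the targeted gene went against its label. APEX1 had 51, 61, 64 and 47 counts in the libraries labelled siCTRL and 21150, 19470, 27916 and 20767 counts in the libraries labelled siAPEX1. The study itself reports silencing of the APE1 protein in its A549 cells, with a Western blot. It also reports that qRT-PCR of selected miRNAs, on pools of the profiled RNA samples, matched its sequencing and NanoString results. Every direction below is that of the libraries as labelled, and what raised the APEX1 counts was not tested. The totals counted on genes ran from 1348386 to 1949886 per library, and all 4 libraries labelled siAPEX1 were smaller than all those labelled siCTRL. In bulk RNA, fewer cells with a transcript and less of it per cell cannot be told apart. The line was checked with epithelial markers, whose summed counts ranged from 1024 to 1379 in the libraries labelled siCTRL and from 278 to 358 in those labelled siAPEX1. Markers of leukocytes summed to at most 5 counts in a library, those of endothelium to at most 1 and those of fibroblasts to at most 14, with PECAM1, CDH5 and CD3E at 0 in all 8.

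S100 proteins are small proteins with a pair of EF-hands, the helix-loop-helix motif that holds a calcium ion. Most form dimers, and calcium opens a surface with which they bind and switch partner proteins such as annexins, myosin and p53. Many are expressed in epithelia, and several are studied in carcinomas for their part in motility, invasion and plasminogen activation. S100A10 is the exception of the family, since its EF-hands no longer bind calcium and it works as the light chain of annexin A2.

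Of the 10 genes, 9 lay on the minus strand of chromosome 1 (GRCh38) between 151982915 and 153631360, in the S100 cluster of band 1q21.3, and S100P lay apart on the plus strand of chromosome 4 from 6693878 to 6697170. S100A10 and S100A11 formed a pair 38.6 kb apart. The other 7 genes of chromosome 1 began 1486.7 kb beyond S100A11 and stood within 96.8 kb, from S100A6 to S100A13. S100A16 spanned 153606886 to 153613145 and ended 1.11 kb before S100A14. The transcripts were short, with canonical GENCODE 44 transcripts of 434 to 1172 nt, the longest being that of S100A16.

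The promoters of S100A16, S100A4, S100A6 and S100A10 are shown because these genes of the same stretch of chromosome 1 gave unlike values below. RefSeq (GRCh38.p14) held 14 windows for the 10 genes, and each sequence printed is the 250 bases before an annotated start, 5′ to 3′ on the minus strand. S100A16 has 2 such starts. The first of the following is the window before its outer start (chr1:153613138-153613387, 57.2% G and C) and the next that before its inner start (chr1:153609356-153609605, 58.0%). The others are those of S100A4 (chr1:153545807-153546056, 62.8%), S100A6 (chr1:153535992-153536241, 70.0%) and S100A10 (chr1:151993860-151994109, 71.2%). Capitals mark matches on either strand to 6 motifs. The TATA box was searched as TATAAA, the GC box, which Sp1 binds, as GGGCGG, and the CCAAT box by its own letters. The core of the hypoxia response element was searched as ACGTG, an AP-1 site as TGANTCA and an NF-kB site as GGGNNTTCC, where N is any base.
S100A16 outer: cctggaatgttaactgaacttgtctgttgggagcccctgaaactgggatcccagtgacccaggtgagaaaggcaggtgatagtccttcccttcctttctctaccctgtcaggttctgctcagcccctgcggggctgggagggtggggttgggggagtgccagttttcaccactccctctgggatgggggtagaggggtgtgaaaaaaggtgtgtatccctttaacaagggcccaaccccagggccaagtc
S100A16 inner: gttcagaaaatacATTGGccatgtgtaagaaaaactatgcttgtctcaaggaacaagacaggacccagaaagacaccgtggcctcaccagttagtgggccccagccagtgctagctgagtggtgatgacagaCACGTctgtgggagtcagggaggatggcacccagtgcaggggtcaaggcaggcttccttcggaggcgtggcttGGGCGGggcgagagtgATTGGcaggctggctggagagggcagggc
S100A4: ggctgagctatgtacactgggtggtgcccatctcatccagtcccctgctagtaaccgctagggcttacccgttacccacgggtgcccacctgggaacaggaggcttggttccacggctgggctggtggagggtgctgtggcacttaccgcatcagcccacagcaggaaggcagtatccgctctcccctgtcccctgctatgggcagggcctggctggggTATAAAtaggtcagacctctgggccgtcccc
S100A6: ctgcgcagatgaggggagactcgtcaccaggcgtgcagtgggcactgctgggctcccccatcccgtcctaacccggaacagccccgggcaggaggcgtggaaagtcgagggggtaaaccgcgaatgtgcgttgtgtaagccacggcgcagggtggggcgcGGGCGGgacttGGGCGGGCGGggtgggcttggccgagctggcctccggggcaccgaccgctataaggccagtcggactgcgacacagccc
S100A10: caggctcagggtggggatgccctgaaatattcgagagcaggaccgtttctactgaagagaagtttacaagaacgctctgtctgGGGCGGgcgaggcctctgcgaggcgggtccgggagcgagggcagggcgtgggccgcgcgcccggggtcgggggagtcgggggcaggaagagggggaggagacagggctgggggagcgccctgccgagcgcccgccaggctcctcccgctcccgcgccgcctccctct

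The windows differed in the motifs they held. The outer window of S100A16 matched none of the 6 motifs, whereas its inner window held 1 GC box, 2 CCAAT boxes and 1 hypoxia core. S100A4 had a TATA box whose first base lay 31 bases before the start, and no GC box. S100A6 held 3 GC boxes, the last pair overlapping, and S100A10 held 1, both without a match to the TATA box. Over all 35116 windows of 250 bases, 10.7% held the TATA box, 42.6% the GC box, 32.0% the CCAAT box, 18.5% the hypoxia core, 6.57% the AP-1 site and 5.78% the NF-kB site. A match is only a run of letters, and the counts do not say which start of S100A16 the cells used.

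S100A16, a widely expressed epithelial S100 protein, was the gene around which the set was drawn. It had 68, 62, 76 and 43 counts in the libraries labelled siCTRL and 2, 9, 7 and 6 in those labelled siAPEX1. All 4 libraries labelled siAPEX1 lay far below all 4 labelled siCTRL. In CPM, the counts scaled by library size and TMM factors to a common total of 1e+06, the level was 30.8 ± 5.19 (SD, n = 4) against 4.69 ± 2.33 (SD, n = 4). The fitted level was 6.49-fold lower, a log2 fold change of -2.70 (SE 0.255), the 5th lowest of the 5368 genes tested.

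S100A4, also called metastasin, binds the heavy chain of non-muscle myosin IIA and is best known for its link to cell motility. It had 218, 247, 238 and 207 counts in the libraries labelled siCTRL and 52, 43, 56 and 66 in those labelled siAPEX1. Here too the groups did not overlap. In CPM the libraries labelled siCTRL lay close together, with a coefficient of variation of 4.07%, and those labelled siAPEX1 less so, at 17.2%. The CPM were 114 ± 4.62 and 42.6 ± 7.32 (SD, n = 4 each), with a log2 fold change of -1.41 (SE 0.119), or 2.66-fold lower. S100A4 was the 122nd lowest of the genes tested.

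S100A6 (calcyclin), which binds the calcyclin-binding protein CACYBP and several annexins, gave the largest share of the S100 counts in both groups. Its counts were 657, 617, 631 and 508 in the libraries labelled siCTRL and 285, 297, 339 and 274 in those labelled siAPEX1. Scaled to CPM the libraries still did not overlap, yet the gap was small, with a log2 fold change of -0.36 (SE 0.0909), or 1.28-fold. S100A11 (calgizzarin), a partner of annexin A1, behaved in the same narrow range. Its 167, 144, 175 and 130 counts in the libraries labelled siCTRL stood against 71, 78, 78 and 67, and its log2 fold change was -0.41 (SE 0.115), or 1.33-fold. GENCODE 44 lists 9 S100A pseudogenes in the table, 8 of them copies of S100A11, and all had 0 counts.

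S100A13 takes part in the release of FGF1 and interleukin 1 alpha, which leave the cell without a signal peptide. It had 30, 27, 27 and 16 counts in the libraries labelled siCTRL and 9, 15, 9 and 7 in those labelled siAPEX1. In CPM the groups overlapped, since the highest library labelled siAPEX1 (12.2 CPM) was above the lowest labelled siCTRL (8.85 CPM). The log2 fold change was -0.66 (SE 0.267). A same-strand lncRNA, ENSG00000271853, shares 225 exon bases with its canonical transcript and had 0 counts, so reads in that stretch could have been left uncounted.

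S100A10, the light chain of annexin A2 and a receptor for plasminogen at the cell surface, was the only tested S100 gene with a positive log2 fold change, and the sign depended on the scaling. Its counts were 202, 139, 161 and 133 in the libraries labelled siCTRL and 105, 141, 120 and 127 in those labelled siAPEX1. The libraries of the 2 groups overlapped in CPM, from 67.3 to 102 against 86.5 to 114. The log2 fold change was 0.29 (SE 0.12) with TMM factors and -0.05 when the libraries were scaled by their size alone.

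The remaining 4 genes were too low to be tested. S100P, which binds ezrin, had 12, 8, 7 and 6 counts in the libraries labelled siCTRL and 3, 6, 3 and 6 in those labelled siAPEX1, a ratio of the scaled sums of 0.859 (95% counting interval 0.455 to 1.57). S100A3, known from the hair cuticle, had 7, 10, 8 and 2 counts against 3, 2, 0 and 2, a ratio of 0.408 (0.15 to 0.961). S100A2, a p53-binding S100 protein of basal epithelia, had between 0 and 2 counts in every library. S100A14, the direct neighbour of S100A16, had 0 counts in all 8 libraries, which allows up to 1.39 to 2.47 CPM depending on the library. The intervals and this limit cover counting error only. A further 11 S100 genes, among them S100A8, S100A9 and S100B, had at most 1 count in total each.

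**Figure D1:**
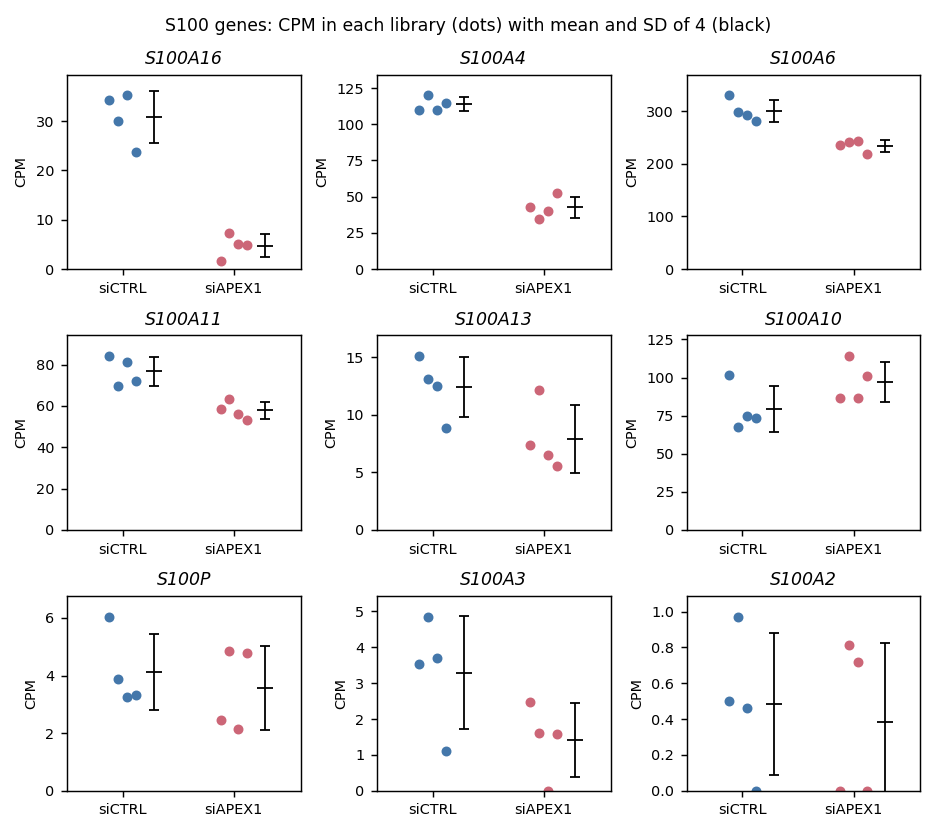
CPM of the 9 S100 genes with any counts in each of the 8 libraries (dots), by the label of the library on the horizontal axis, with the mean and SD of 4 libraries in black and each vertical axis starting at 0. The dots of S100A16, S100A4, S100A6 and S100A11 do not overlap between the labels, while those of S100A10, S100A13, S100P, S100A3 and S100A2 do.

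S100A16 and S100A4 stood apart from the other tested S100 genes. Of the 6 tested, 5 had a log2 fold change below 0, with a median of -0.536 over the 6, against a median of -0.00347 over all 5368 genes tested. A gene was called at a log2 fold change of at least 1 in size and an adjusted p of at most 0.05 (edgeR quasi-likelihood test, Benjamini-Hochberg), and by this rule 2 of the 6, S100A16 and S100A4, were called, both lower. Over all genes tested, 305 (5.68%) were called lower and 193 (3.6%) higher. The libraries labelled siAPEX1 all lay below those labelled siCTRL for 4 of the 6 S100 genes and for 802 of all genes (14.9%). Since the set was chosen on this contrast, nothing is read from these shares.

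**Figure D2:**
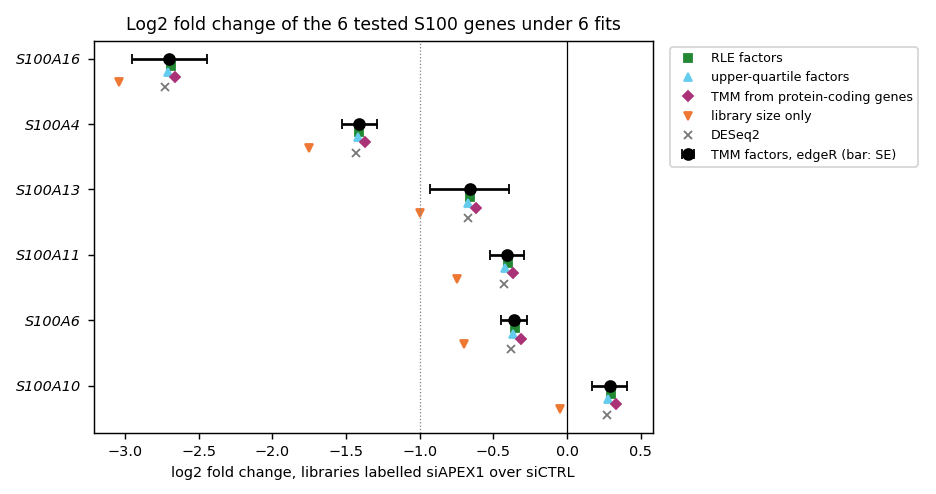
Log2 fold change (horizontal axis) of the 6 tested S100 genes under TMM scaling (black, bar the SE) and 5 other fits (coloured marks), with the dotted line at the calling threshold of -1. S100A16 and S100A4 sit left of -1 under every fit drawn, and S100A10 crosses 0 when only the library size is used.

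Scaling by library size alone moved the median of all genes by -0.34 on the log2 scale, and the calls from 193 higher and 305 lower to 84 higher and 655 lower. Under it S100A4 stood at -1.75, S100A11 at -0.75, S100A6 at -0.70 and S100A13 at -1.0, which then passed the calling rule as a 3rd S100 gene. The other scalings (RLE factors, upper-quartile factors and TMM factors from nuclear protein-coding genes without APEX1) left each of the 6 genes on the side of 0 given above. S100A16 was at 2 counts in its lowest library and so was not tested when at least 10 counts were asked of every library. Short transcripts as a class also lay slightly low. Of 498 nuclear protein-coding genes whose canonical transcript was no longer than that of S100A16, a class drawn after the values were seen, 44 (8.84%) were called lower and 7 (1.41%) higher, with a median of -0.113.

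**Figure D3:**
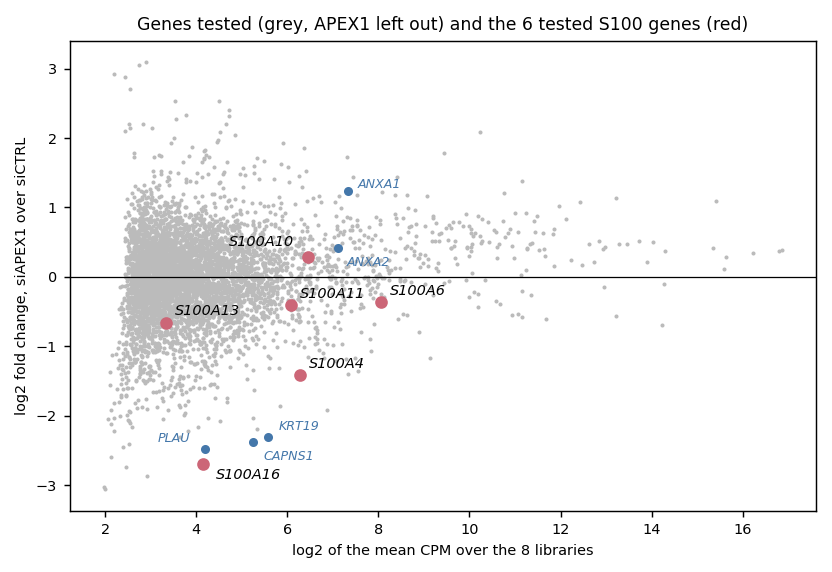
Log2 fold change (vertical axis) against the log2 of the mean CPM over the 8 libraries (horizontal axis) for the genes tested in grey, with APEX1 left out of the plot, the 6 tested S100 genes in red and 5 other named genes in blue. S100A16 lies near the lower edge at a low level, and S100A6, the S100 gene with the highest level, lies close to 0.

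The order of the S100 levels also differed between the labels. Per kilobase of canonical transcript, S100A6 led in the libraries labelled siCTRL at 693 ± 48.6 CPM per kb (SD, n = 4), followed by S100A4 at 221 ± 9.0. S100A11 (136 ± 12.3) and S100A10 (118 ± 22.7) came next and overlapped, as did S100A16 (26.3 ± 4.42) and S100A13 (26.0 ± 5.45) below them. S100P, S100A3 and S100A2 were lowest, at 8.74, 4.44 and 0.495 CPM per kb. In the libraries labelled siAPEX1, S100A6 again led at 540 ± 27.4 CPM per kb. S100A10 (145 ± 20) was then the next, ahead of S100A11 (103 ± 7.55) and S100A4 (83.1 ± 14.3), whose ranges overlapped. S100A16, at 4.0 ± 1.98 CPM per kb, overlapped with S100P above it and S100A3 below it.

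Ratios of S100 genes within a library do not depend on how the libraries are scaled. For each 100 counts of S100A6 there were 10.4, 10, 12 and 8.46 counts of S100A16 in the libraries labelled siCTRL and 0.702, 3.03, 2.06 and 2.19 in those labelled siAPEX1. S100A16 was thus low relative to the more abundant S100A6 as well. S100A4 went from 37.9 ± 3.41 to 18.3 ± 4.13 counts per 100 of S100A6 (SD, n = 4 each), and from 147 ± 29.1 to 44.7 ± 9.69 per 100 of S100A10. S100A11 went from 98.2 ± 11.3 to 60.2 ± 7.24 counts per 100 of S100A10, its neighbour in the genome. None of these ratios overlapped between the labels, and they show unequal change among the S100 genes, not which of them stayed level.

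Together the 10 genes held 0.0683% ± 0.00541 of all counts in the libraries labelled siCTRL and 0.0392% ± 0.00163 in those labelled siAPEX1 (SD, n = 4 each). The next share was taken of the counts of nuclear protein-coding genes without APEX1. It leaves out the small and structural RNAs this library kit also captures, and the high APEX1 counts under the siAPEX1 label. On it the values were 0.443% ± 0.0298 and 0.321% ± 0.0148. The libraries did not overlap on either scale. S100A6 made up 48.4% ± 0.618 of the S100 counts under the siCTRL label and 52.2% ± 2.84 under the siAPEX1 label.

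Binding partners of S100 proteins and genes of the plasmin system were tested together as a list of 26 genes. Of these, 19 were high enough, and both directions occurred. PLAU, PLAUR, SYT1 and ANXA6 were called lower and ANXA1 was called higher, where 5.68% and 3.6% of all genes tested were. By the adjusted p alone 5 were lower and 3 higher, where 15.8% and 15.9% of all genes were. The median log2 fold change of the list was -0.103. PLAU, the urokinase-type plasminogen activator, had 56, 61, 69 and 62 counts in the libraries labelled siCTRL and 7, 4, 11 and 6 in those labelled siAPEX1 (log2 fold change -2.48, SE 0.23, adjusted p = 1.42e-11, edgeR). Its receptor PLAUR had 32, 47, 39 and 37 counts against 6, 11, 16 and 3 (log2 fold change -1.44, adjusted p = 3.26e-05, edgeR). Both belong to the system that makes plasmin, for which S100A10 is a docking site. SYT1, a calcium sensor found with S100A13 in the complex that releases FGF1, fell by 1.17 on the log2 scale (adjusted p = 1.19e-06, edgeR), and its call was lost without siAPEX1 replicate 3, at -0.89. ANXA6, an annexin bound by S100 proteins, fell by 2.11 (adjusted p = 4.65e-05, edgeR) at 1 to 5 counts in the libraries labelled siAPEX1.

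Annexins did not move alike. ANXA1, the annexin that S100A11 binds, had 192, 215, 201 and 167 counts in the libraries labelled siCTRL and 289, 265, 316 and 285 in those labelled siAPEX1. It rose with a log2 fold change of 1.23 (SE 0.0949, adjusted p = 9.83e-14, edgeR), which library size alone reduced to 0.89, below the calling threshold. ANXA2, the heavy chain to S100A10, had 227, 251, 263 and 209 counts against 214, 188, 223 and 176, a log2 fold change of 0.41 (SE 0.0974, adjusted p = 0.001, edgeR) with TMM factors and of 0.07 (adjusted p = 0.609) by library size. S100A10 and ANXA2 kept a similar ratio within libraries, at 67.3 ± 14.9 and 62.5 ± 13.0 counts of S100A10 per 100 of ANXA2 (SD, n = 4 each), with overlapping ranges. AHNAK, the large scaffold that the S100A10 and ANXA2 complex holds, stood at -0.63 on the same scale (adjusted p = 0.00415, edgeR) with overlapping libraries, and ranged from -0.97 to -0.41 over the alternatives, with the adjusted p above 0.05 under DESeq2 and without siAPEX1 replicate 4.

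MYH9, CACYBP, ANXA11 and EZR did not pass the adjusted p with TMM factors. Scaled by library size alone, MYH9 was at -0.59 (adjusted p = 5.73e-05, edgeR) and ANXA11 at -0.53 (adjusted p = 0.018, edgeR). CACYBP (adjusted p = 0.133) and EZR (adjusted p = 0.954, edgeR) did not pass under that scaling either. The values that follow are those with TMM factors. MYH9, the myosin heavy chain bound by S100A4, was at -0.24 on the log2 scale (adjusted p = 0.111, edgeR). For CACYBP and ANXA11, which S100A6 binds, the values were -0.10 (adjusted p = 0.788) and -0.19 (adjusted p = 0.488, edgeR). EZR, the ezrin gene, had 0.33 (adjusted p = 0.119, edgeR). AGER, the receptor for extracellular S100 proteins, had at most 2 counts in a library and was not tested.

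Other EF-hand proteins were a list of 30 genes, 25 of them tested. Of these, 2 were called, both lower, where 5.68% of all genes tested were called lower. At a threshold of 0.75 the calls were 2 lower and 2 higher. By the adjusted p alone 7 were lower and 2 higher, where 15.8% and 15.9% of all genes were, and the median over the 25 was -0.132 on the log2 scale. CAPNS1, the small regulatory subunit of calpain, had 124, 138, 136 and 112 counts in the libraries labelled siCTRL and 11, 20, 11 and 20 in those labelled siAPEX1 (log2 fold change -2.38, SE 0.169, adjusted p = 9.51e-15, edgeR). NUCB2, which encodes the calcium-binding nucleobindin of the secretory pathway, fell by 1.32 on the log2 scale (SE 0.132, adjusted p = 1.07e-10, edgeR). Of 18 calcium pumps and channels, 11 were tested and 1 was called, lower, where 5.68% of all genes tested were. This was ATP2C1, a calcium and manganese pump of the Golgi, at -1.38 (adjusted p = 7.52e-04, edgeR). By the adjusted p alone 3 were lower and 1 higher, against 15.8% and 15.9% of all genes, and the median over the 11 was -0.197.

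**Figure D4:**
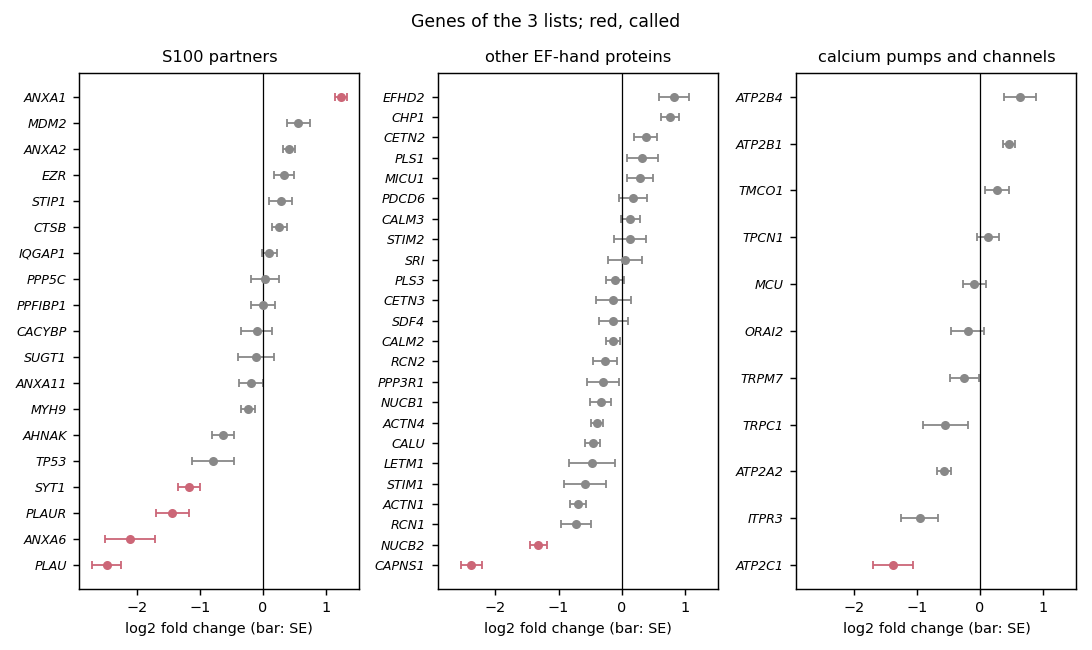
Log2 fold change with its SE (horizontal axis) of the tested genes of 3 lists, S100 partners (with genes of the plasmin system), other EF-hand proteins and calcium pumps and channels. Genes are sorted within each list, with called genes in red and 1 uncalled EF-hand gene not drawn. PLAU, ANXA6, PLAUR and SYT1 lie to the left and ANXA1 to the right among the partners, CAPNS1 and NUCB2 stand lowest among the EF-hand genes, and ATP2C1 is the red point of the last list.

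The tested genes around the cluster had log2 fold changes between -0.80 and 1.01. Within 500 kb on either side of the S100 genes of chromosome 1, between 151482915 and 154131360, there were 134 other genes, 93 of them with 0 counts in all libraries and 10 tested. Of these 10, 1 was called, TUFT1, which was higher (log2 fold change 1.01, adjusted p = 0.0143, edgeR), with overlapping libraries and a call that was lost under 8 of its 15 alternatives. By the adjusted p alone RAB13, JTB and INTS3 were lower and GATAD2B was also higher, against 847 (15.8%) lower and 856 (15.9%) higher of all genes tested. This was lost for INTS3 under 11 of 15 alternatives, for JTB under 7 of 16, for RAB13 under 6 of 15 and for GATAD2B under 4 of 16. Scaled by library size alone, RAB13 and INTS3 were called lower and TUFT1 was not called. The genes nearest to S100A16 beyond the cluster, CHTOP and ILF2, had log2 fold changes of 0.06 (SE 0.24) and -0.50 (SE 0.22). RPS27, with the highest counts among these neighbours, had 0.14 (SE 0.0962).

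**Figure D5:**
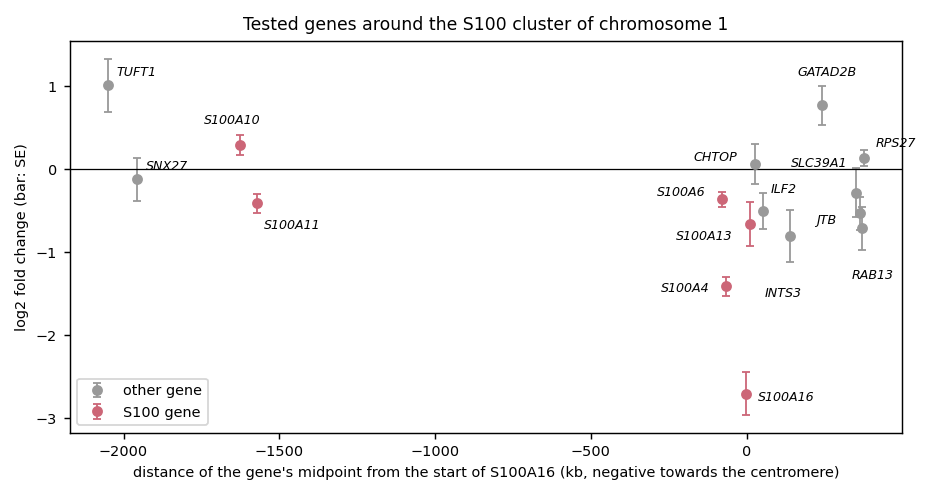
Log2 fold change with its SE (vertical axis) of the tested S100 genes (red) and of the 10 other tested genes (grey) against the distance of each gene's midpoint from the start of S100A16 in kb. S100A16 and S100A4 lie below the other genes of the stretch, and S100A6 and S100A13 on either side of S100A16 lie at -0.36 and -0.66.

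The genes with the pattern most like that of S100A16 over the 8 libraries were sought by the root mean square difference of the log2 CPM, each gene centred on its own mean. CAPNS1 was nearest (0.392), followed by DMKN (0.452), COCH (0.486), RASD1 (0.495) and KRT19 (0.513). DMKN encodes dermokine, a secreted protein of epithelia, and had 15, 13, 14 and 15 counts in the libraries labelled siCTRL and at most 2 in those labelled siAPEX1. COCH encodes the secreted protein cochlin, and RASD1 a small GTPase induced by glucocorticoids. COCH had 14, 16, 17 and 13 counts against 0, 4, 4 and 1, and RASD1 22, 20, 17 and 15 against 1, 3, 4 and 3. Counts this low lie near the prior count of 2 added for the log2 CPM, which limits how far their likeness can be read. KRT19, a keratin of simple epithelia, had 162, 169, 163 and 141 counts against 22, 20, 21 and 18. Among the S100 genes S100A4 was nearest, at a difference of 0.757 and place 79 of 5367 genes. These genes share with S100A16 the libraries and the contrast, so the likeness is a description.

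Among the epithelial markers the keratins were lower as well. KRT19 (log2 fold change -2.31, adjusted p = 1.82e-16), KRT18 (-1.36, adjusted p = 3.75e-13), KRT7 (-1.21, adjusted p = 6.56e-12) and KRT8 (-1.01, adjusted p = 1.33e-07) were called lower by edgeR, the call of KRT8 being lost under 5 of 16 alternatives, whereas CDH1, which encodes E-cadherin, had 0.92 (adjusted p = 2.45e-04). EPCAM, at 0 to 9 counts, was not tested. The part of these markers in the values of the S100 genes was not tested.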

How the data were processed

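The values are raw counts per gene that the authors deposited for 8 libraries of A549 cells. By their methods, total RNA went through the SMARTer smRNA-Seq kit, modified to also capture pri-miRNAs. Reads were trimmed with cutadapt, aligned to GRCh38 with STAR 2.5.3a and counted per Ensembl gene with GeneCounts. The annotation release and strand setting are not given in the sources used here.

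Groups came from the sample titles. The title of siCTRL replicate 3 begins with the number of replicate 2, and its column was matched by group and replicate. Of 58302 identifiers, 57532 matched GENCODE 44. Counts were tested in R 4.3.3 with edgeR 4.0.16 (TMM factors, quasi-likelihood test, Benjamini-Hochberg adjustment over 5368 genes kept by filterByExpr with a minimum count of 10 and a total of 15). SE values were derived from the F statistics (fold change on the log2 scale over root F). The log2 CPM used a prior count of 2. The common coefficient of variation was 0.0832. Ratios of sums for low genes have exact 95% binomial counting intervals, and a count of 3 was the floor. The code was tested on simulated data.

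The members and lists were chosen with earlier results of these data known. Named are all 10 members, other S100 genes by their counts, up to 6 called genes of each list by adjusted p, 7 partners (ANXA2, AHNAK, ANXA1, ANXA11, CACYBP, MYH9 and EZR), the 5 genes nearest to S100A16 and APEX1. The genes AGER, CHTOP, ILF2, RPS27, the neighbours past the adjusted p alone and the markers were named after their values were seen. The list of other EF-hand genes holds 1 gene that is not reported here. Alternatives were other scalings, DESeq2 1.42.0, other filters, a threshold of 0.75, a block on the replicate number, and fits without each single library. No 2 libraries agreed within sampling noise.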

Additional observations from a re-analysis of the deposited data

How the results depend on the processing

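Of the alternative values, 176 stayed within the limits used and 30 moved, but these limits were wide. Library size alone gave 739 genes called (655 lower, 84 higher) in place of 498 (305 lower, 193 higher), which still lay within them. So did S100A13 at -1.0 under that scaling, where it became called. Without a filter 943 genes were called in place of 498, with at least 10 counts in every library 181 and at the threshold of 0.75 935. Leaving out 1 library gave 528 to 603. With at least 10 counts in every library 1 S100 gene, S100A4, was called in place of 2, S100A16 no longer being tested. That filter also left 2 partner genes of 5, 0 pump and channel genes, 0 neighbours of the cluster and 2 of the 5 genes most like S100A16. Scaling by library size alone gave 4 other EF-hand genes in place of 2, 2 neighbours, both lower, in place of 1 that was higher, and 2 pump and channel genes in place of 1. It also set the log2 fold change of S100A4 at -1.75, S100A6 at -0.70, S100A11 at -0.75 and S100A10 at -0.05. Without a filter S100A6 was at -0.45, with 4 pump and channel genes and 0 neighbours called. DESeq2 also called 0 neighbours. At 0.75, 4 other EF-hand genes (2 lower and 2 higher), 3 neighbours (1 lower and 2 higher) and 2 pump and channel genes were called. The difference in the S100 share of counts was -0.0291 percentage points of all counts and -0.122 of the counts of nuclear protein-coding genes without APEX1.

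Leaving out each library in turn left 2 S100 genes called each time. S100A16 ranged from -2.95 to -2.41, S100A4 from -1.50 to -1.31, S100A13 from -0.91 to -0.50, S100A11 from -0.45 to -0.35, S100A6 from -0.39 to -0.30 and S100A10 from 0.22 to 0.43. Neighbours called ranged from 0 to 1, being 0 without siCTRL replicate 1 or 3 or siAPEX1 replicate 2 or 4, and pump and channel genes from 1 to 2, being 2 without siCTRL replicate 1 or 2.

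With the replicate number as a block 494 genes were called, 491 of them shared with the 498, and the neighbour TUFT1 was not. The block changed no call of an S100 gene, with S100A16 at -2.69 and S100A4 at -1.41. The libraries share only a number, and those with the same number did not deviate together (correlations from -0.0373 to -0.00348).

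Counts of 2 to 9 for S100A16 under the siAPEX1 label, and of at most 12 for S100P and S100A3, limit what the depth can show for these genes.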
